A study of Mus musculus with 6 samples.

Results

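Adcyap1, Bdnf, Nos1 and Sncg are genes known from warm-activated or thermoregulatory neurons of the preoptic area (POA), and they were picked by symbol for that reason. The choice was made with earlier results of these data known, so the 4 are not an independent set. All 4 are among the 9583 genes of the deposited RNA-seq table. The RNA came from POA neurons of naïve wild-type C57Bl/6J mice aged 6 to 14 weeks, which were dissociated, kept briefly in culture and loaded with a ratiometric calcium dye. Every coverslip was cooled to about 10°C and then depolarized with a high-potassium solution, so both types of neuron had the same treatment. Single neurons with a cooling response in the top 7% were aspirated as cold-sensitive and those in the bottom 14% as cold-insensitive, from the same coverslips. Each of the 3 biological replicates of a type is a pool of about 100 to 200 neurons from several isolations.

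In cold-sensitive POA neurons the transcripts of both secreted factors, Adcyap1 and Bdnf, were more abundant, at 4.28 and 4.96 times the mean level of cold-insensitive neurons. Those of Nos1 and Sncg were less abundant, with means 2.36 and 2.96 times higher in cold-insensitive neurons. Libraries of the 2 types did not overlap for any of the 4 genes, as was so for 7.84% of all genes on the higher and 8.18% on the lower side. Of the 4, only Adcyap1 passed the edgeR test across all genes, which called 0.334% of them higher and 0.835% lower. That call was lost with DESeq2 (adjusted p = 0.110), which called Nos1 alone of the 4 (adjusted p = 0.0301). It was also lost with robust dispersions in edgeR (adjusted p = 0.390) and without both libraries of replicate 2 (edgeR adjusted p = 0.0813). Bdnf passed when libraries with the same replicate number were treated as pairs, which the labels do not state.

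Adcyap1 encodes PACAP, a peptide that acts through the PAC1 receptor, encoded by Adcyap1r1, and the VIP receptors, mainly by raising cyclic AMP. Bdnf encodes brain-derived neurotrophic factor, an activity-regulated ligand of the TrkB receptor (Ntrk2). In mice, neurons of the ventromedial POA that express both genes are activated by warmth, and driving them lowers body temperature. Nos1 encodes the neuronal nitric oxide synthase, whose product stimulates soluble guanylyl cyclase to make cyclic GMP. Sncg encodes gamma-synuclein, a small neuronal protein of the synuclein family.

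In the GENCODE annotation of GRCm38, Adcyap1 (ENSMUSG00000024256.7) is transcribed from the forward strand of chromosome 17 between 93199017 and 93206537, with 3777 exonic bases. Bdnf (ENSMUSG00000048482.14) is transcribed from that of chromosome 2 between 109674700 and 109727007, with 11 transcripts and 6217 exonic bases. Nos1 (ENSMUSG00000029361.18) is transcribed from that of chromosome 5 between 117781032 and 117958840, with 11151 exonic bases. Sncg (ENSMUSG00000023064.4) is on the reverse strand of chromosome 14, between 34370274 and 34374789, with 852 exonic bases. The authors counted reads over all exons of a gene without regard to strand. Reads from the antisense transcript Gm45346, which shares 896 bases (14.4%) of the Bdnf exons, and from Gm26995, which shares 268 bases (2.4%) of the Nos1 exons, can thus not be told apart from those of Bdnf and Nos1.

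Since Adcyap1 and Bdnf were both higher in cold-sensitive neurons, the sequence before a start site of each is shown, from the RefSeq promoters of GRCm38.p6. Capitals mark the letters TGACG, or CGTCA where they lie on the other strand, the core of the element bound by the cyclic AMP-responsive factor CREB. The Adcyap1 stretch is chr17:93198767-93199016 and that of Bdnf is chr2:109692186-109692435, both on the forward strand and ending 1 base before the start.
Adcyap1: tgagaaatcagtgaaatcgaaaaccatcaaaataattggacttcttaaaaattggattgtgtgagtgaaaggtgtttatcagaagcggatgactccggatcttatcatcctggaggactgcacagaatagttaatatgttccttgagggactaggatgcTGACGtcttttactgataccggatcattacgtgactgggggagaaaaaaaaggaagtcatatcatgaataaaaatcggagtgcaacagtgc
Bdnf: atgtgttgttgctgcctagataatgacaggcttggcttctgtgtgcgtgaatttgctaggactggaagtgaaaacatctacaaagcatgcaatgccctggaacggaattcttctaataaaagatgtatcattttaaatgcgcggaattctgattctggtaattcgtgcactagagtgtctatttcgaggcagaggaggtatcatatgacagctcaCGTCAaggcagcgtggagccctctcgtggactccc

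The core begins 91 bases before the start of Adcyap1 and 35 bases before that of Bdnf. It was found in both Adcyap1 windows of 250 bases, which overlap and share the match, in 1 of the 7 Bdnf windows, in the Nos1 window, whose RefSeq start lies inside the GENCODE gene, and not in the Sncg window. The Bdnf window printed is the one that holds it. Of all 32851 windows of this length, 17.8% hold the core on either strand and 1.55% the complete element TGACGTCA, which none of the 4 genes has. Such a match is a description of the letters. The counts are summed over each gene, so they do not show which Bdnf start site was used.

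Values per library are the authors' normalized read counts, in reads per 1000000 of the effective library size (RPM). Genes were called where edgeR's adjusted p, taken across the whole table, did not exceed 0.05. Before adjustment 1024 of the 9583 genes had an edgeR p under 0.05, both directions together. Counts at this unadjusted threshold in the lists below are to be read beside that number. Depth was 3316441 to 6818554 counted reads in cold-sensitive and 5276233 to 5712983 in cold-insensitive libraries. Of 12 pan-neuronal markers 12 were measured and 0 were called by edgeR (2 higher and 2 lower with p under 0.05 before adjustment, 1 called by DESeq2). With the replicate number as a block 2 of them, the neurofilament genes Nefl and Nefm, were called lower (edgeR adjusted p = 0.00388 and 0.00325). Of 13 hypothalamic and POA markers 7 were measured, without Otp, Hmx2, Six6, Meis2, Moxd1 and Lhx8. Of 8 markers of oligodendrocyte precursors 3 were measured and 2 fell, Pdgfra and Vcan, with a summed level of 22.7 to 62.8 RPM in cold-sensitive and 445 to 536 RPM in cold-insensitive libraries. Of 7 oligodendrocyte markers Mbp was measured, at 73.6 to 416 and 16.1 to 193 RPM, and it was called with the replicate block (edgeR adjusted p = 0.00218) but not without it (0.382). Of 8 astrocyte markers 2 were measured, at a summed 89.4 to 120 and 94.3 to 298 RPM. Cold-insensitive replicate 1 was the highest library of its type for Mbp (193 RPM, against 48.4 and 16.1) and for the astrocyte marker Slc1a2 (288 RPM, against 84.8 and 74.4). It was the lowest for the other measured astrocyte marker, Sox9 (9.12 RPM, against 34.4 and 20.0). Of the precursor markers it was highest for Vcan and C1ql1, but not for Pdgfra (358 RPM, against 364 and 335). Mbp was higher still in cold-sensitive replicate 1 (416 RPM). Of 8 microglial and 8 endothelial and mural markers 0 are in the table, which leaves out any gene under 1 RPM in a library. The part of such cells in the differences of the 4 genes was not tested. In pooled neurons a smaller share of cells that express a gene and less RNA of it per cell cannot be told apart.

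Adcyap1 was at 402, 392.5 and 401 RPM in cold-sensitive replicates 1 to 3 (1400, 1278 and 2693 reads) and at 19.6, 121 and 139 RPM in cold-insensitive replicates 1 to 3 (from 116, 710 and 710 reads). The cold-sensitive libraries were nearly equal, and every one of them was above every cold-insensitive library. Their coefficient of variation was 1.31%, less than the 2.36% that counting error alone gives at this depth, and the 23rd lowest of the 9583 genes, whose median was 31.1%. Cold-insensitive neurons instead varied over a 7.09-fold range, with replicate 1 far below replicates 2 and 3.

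**Figure D1:**
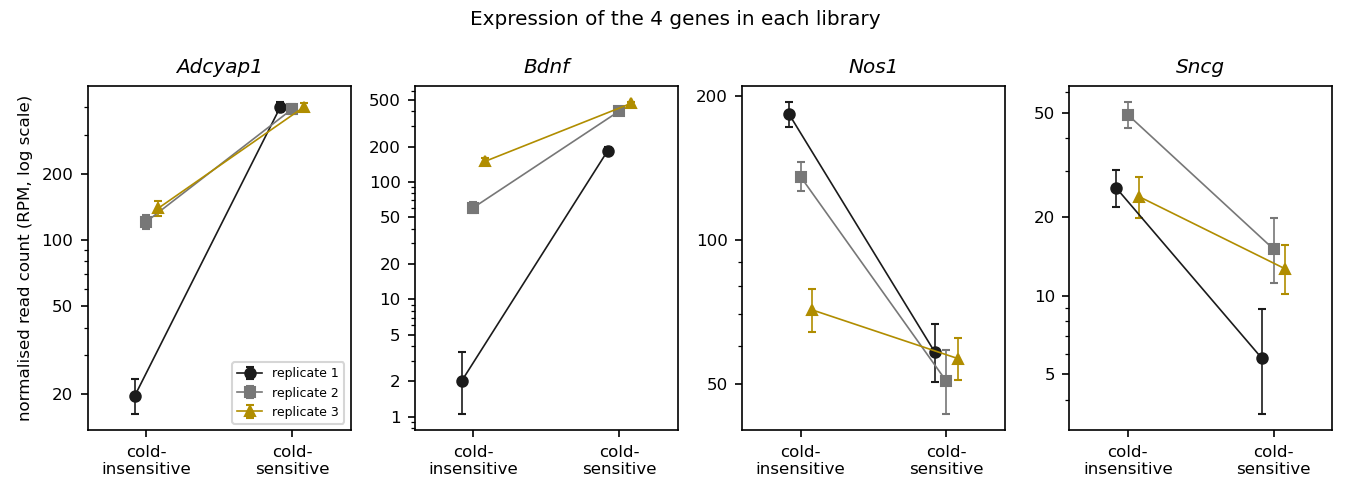
Normalized read count (RPM, log scale, a separate axis for each gene) of Adcyap1, Bdnf, Nos1 and Sncg in each library, with lines joining libraries of the same replicate number and bars giving the 95% exact binomial interval of the count. All cold-sensitive libraries lie above the cold-insensitive ones for Adcyap1 and Bdnf and below them for Nos1 and Sncg, and cold-insensitive replicate 1 has 2.03 RPM of Bdnf.

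The mean of Adcyap1 was 398 ± 5.24 RPM in cold-sensitive and 93.2 ± 64.4 RPM in cold-insensitive neurons (SD, n = 3 pools of each type). Its log2 fold change was 2.10 (standard error, SE, 0.40, quasi-likelihood F-test of edgeR with Benjamini-Hochberg adjustment, adjusted p = 0.00652), and of the 4 genes it was the 1 called higher, where 0.334% of all genes were. A two-sided exact permutation test of the means gave p = 0.1, the smallest value that 3 pools against 3 allow, for Adcyap1 and for each of the other genes. The Adcyap1 call was lost with DESeq2 (adjusted p = 0.110), with robust dispersions in edgeR (adjusted p = 0.390) and when both libraries of replicate 2 were left out (edgeR adjusted p = 0.0813), and its adjusted p spanned 0.000139 to 0.390 over 20 alternatives. Without cold-insensitive replicate 1 the log2 fold change was 1.62 (edgeR adjusted p = 0.00272).

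Bdnf was at 185, 403 and 468 RPM in cold-sensitive replicates 1 to 3 (643, 1313 and 3146 reads) and at 2.03, 60.7 and 150 RPM in cold-insensitive replicates 1 to 3 (from 12, 356 and 768 reads). The lowest cold-sensitive library was thus only a little above the highest cold-insensitive one. Within both types replicate 1 was the lowest and replicate 3 the highest. Since the types did not overlap, any pairing gives the cold-sensitive pool more, by 91.1, 6.65 and 3.11 times for equal replicate numbers. The 12 reads of cold-insensitive replicate 1 have a 95% exact binomial interval of 1.05 to 3.54 RPM, which covers counting error only, so its distance from the other libraries is larger than counting error.

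The 74.2-fold range of Bdnf among the cold-insensitive libraries was the widest of all 9583 genes in the table, followed by the 38.4-fold range of Kantr and the 36.9-fold range of Dennd2c. The median range was 1.75-fold in cold-insensitive and 1.84-fold in cold-sensitive neurons, where Bdnf spanned 2.53-fold. The table holds only genes above 1 RPM in every library, which limits how wide such a range can be. Cold-insensitive replicate 1, which was lowest for Adcyap1 and Bdnf, was highest for Nos1. Within its type it was also highest for the glial markers Mbp and Slc1a2, but lowest for the astrocyte marker Sox9. Whether glial RNA had a part in these values was not tested.

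**Figure D2:**
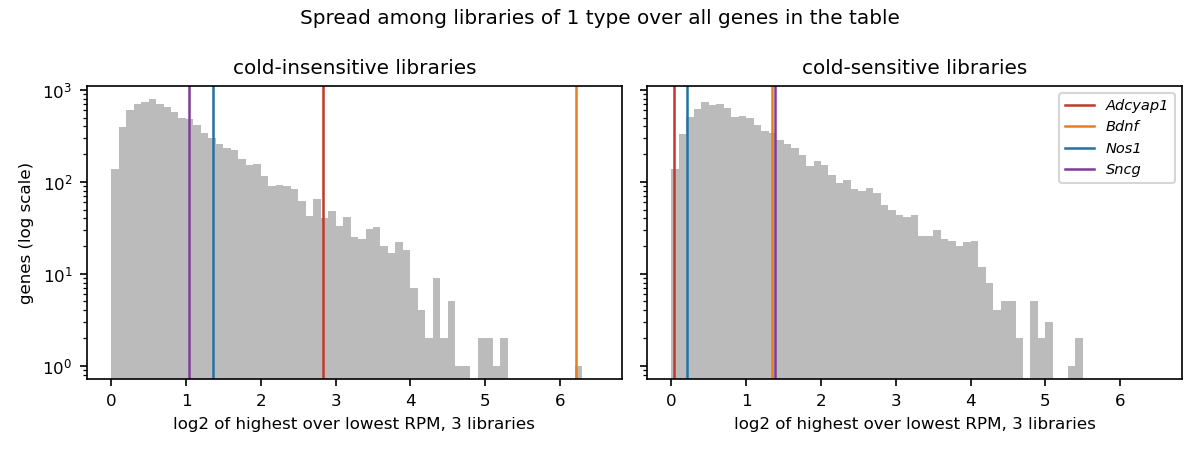
Number of genes (log scale) by the log2 ratio of the highest to the lowest RPM among the 3 cold-insensitive libraries and among the 3 cold-sensitive libraries, with lines for the 4 genes. Bdnf stands at the far end of all genes in the cold-insensitive libraries (74.2-fold), and Adcyap1 at the near end in the cold-sensitive libraries (a 1.025-fold range).

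The mean of Bdnf was 352 ± 148 RPM in cold-sensitive and 71.0 ± 74.7 RPM in cold-insensitive neurons (SD, n = 3). The log2 fold change was 2.31 (SE 0.63) and did not pass the test (edgeR adjusted p = 0.0724). With the replicate as a block, a pairing inferred from the collection of both types from shared coverslips and not stated in the labels, it was 3.20 (SE 0.49, edgeR adjusted p = 0.000556). In that fit 2 of the 4 genes, Adcyap1 and Bdnf, were called higher, where 0.417% of all genes were, and none of the 4 was called lower, where 1.19% were. Bdnf also passed with limma on log2(RPM + 1) (log2 fold change 3.43, adjusted p = 0.0173), but not with DESeq2 (adjusted p = 0.475), and its adjusted p spanned 0.000341 to 0.687 over 20 alternatives. Single libraries decided the call. In edgeR, Bdnf passed at a log2 fold change of 1.74 (adjusted p = 0.0433) once cold-insensitive replicate 1 was left out, at 3.49 (adjusted p = 0.0146) once cold-insensitive replicate 3 was, at 2.62 (adjusted p = 0.0214) once cold-sensitive replicate 1 was, and at 2.05 (adjusted p = 0.000341) once both libraries of replicate 1 were.

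Nos1 was at 58.3, 50.7 and 56.5 RPM in cold-sensitive replicates 1 to 3 (203, 165 and 380 reads) and at 183, 136 and 71.4 RPM in cold-insensitive replicates 1 to 3 (from 1085, 796 and 365 reads). As with Adcyap1, the cold-sensitive libraries lay close together (coefficient of variation 7.26%, against 6.33% from counting error alone) and the cold-insensitive ones were spread out (43.1%). Within replicates 1 and 2 the cold-insensitive pool had 3.14 and 2.68 times as much, and within replicate 3 only 1.26 times. The means were 55.2 ± 4.003 and 130 ± 56.1 RPM (SD, n = 3), a log2 fold change of -1.24 (SE 0.34) that did not pass the test (edgeR adjusted p = 0.0730). It passed with DESeq2 (adjusted p = 0.0301) and not with the replicate block (edgeR adjusted p = 0.0847). Among fits with libraries left out it passed only without cold-insensitive replicate 3 (at -1.53, edgeR adjusted p = 0.0233). Its adjusted p covered 0.0233 to 0.549 in 20 alternatives.

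Sncg had few reads. It was at 5.75, 15.0 and 12.6 RPM in cold-sensitive replicates 1 to 3 (20, 49 and 85 reads) and at 25.8, 49.2 and 23.9 RPM in cold-insensitive replicates 1 to 3 (from 153, 289 and 122 reads). Its libraries varied to a like extent in both types, with coefficients of variation of 43.3% and 42.8%. Since the types did not overlap, any pairing gives the cold-insensitive pool more, by 4.50, 3.27 and 1.89 times for equal replicate numbers. The means were 11.1 ± 4.83 and 33.0 ± 14.1 RPM (SD, n = 3), with a log2 fold change of -1.56 (SE 0.63, edgeR adjusted p = 0.331) that passed in none of 20 alternatives (adjusted p of 0.132 to 0.859).

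**Figure D3:**
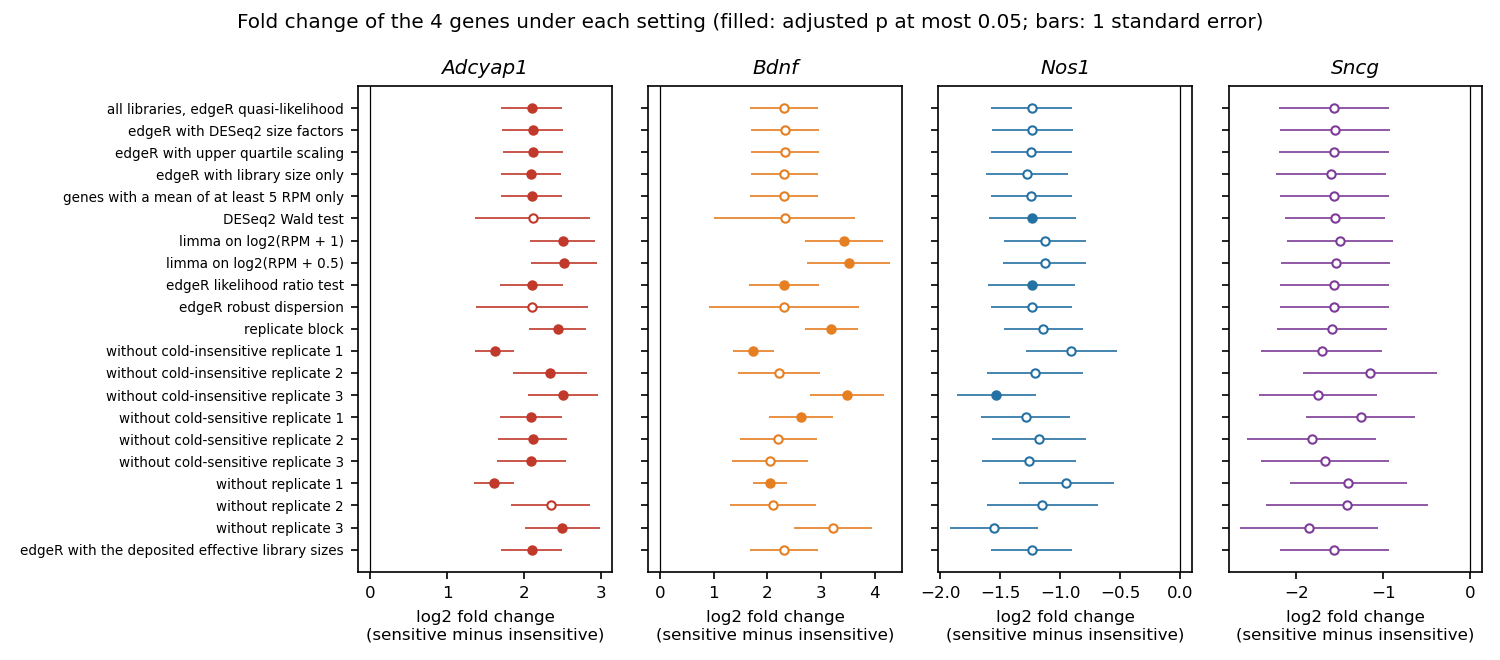
Log2 fold change (cold-sensitive minus cold-insensitive) of the 4 genes with 1 standard error, for edgeR on all libraries and for 20 alternatives, filled where the adjusted p is at most 0.05. The direction is the same under each setting, with ranges of 1.61 to 2.51 for Adcyap1, 1.74 to 3.52 for Bdnf, -1.55 to -0.91 for Nos1 and -1.86 to -1.16 for Sncg. For fits with libraries left out, this direction follows from the lack of overlap between the types.

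Of the 4 genes, 2 had cold-sensitive libraries that all lay above the cold-insensitive ones, as 7.84% of all genes did, and 2 had them all below, as 8.18% of all genes did. None was called lower by edgeR, where 0.835% of all genes were. All 4 had an unadjusted p under 0.05, as did 1024 of the 9583 genes of the table. Per kilobase of exon, which allows levels of different genes to be compared, the order in cold-sensitive neurons was Adcyap1 (105 ± 1.39 RPM per kilobase), Bdnf (56.6 ± 23.9), Sncg (13.1 ± 5.67) and Nos1 (4.95 ± 0.36), and no neighbours in this order overlapped between libraries. In cold-insensitive neurons Sncg was first (38.7 ± 16.6 RPM per kilobase), followed by Adcyap1 (24.7 ± 17.04), Nos1 (11.7 ± 5.03) and Bdnf (11.4 ± 12.01), and all neighbours overlapped. Within single libraries there were 0.459, 1.027 and 1.168 reads of Bdnf per read of Adcyap1 in cold-sensitive replicates 1 to 3, and 0.10, 0.50 and 1.08 in cold-insensitive replicates 1 to 3. This ratio overlapped between the types and was lowest in replicate 1 of each.

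Genes with the most similar profile over the 6 libraries, by Pearson's r of log2(RPM + 1) among 8861 genes with a mean of at least 10 RPM are given as a description. For Adcyap1 these were Cdkn1a (r = 0.993), Eif4g2 (0.992) and Wdr19 (0.990), and for Bdnf they were Phax (0.989), Ywhaz (0.987) and Cacnb4 (0.985). For Nos1 they were Adgrl1 (r = 0.986), Gps2 (0.982) and Tanc1 (0.980), and for Sncg they were Shroom3 (0.993), Fam102a (0.987) and Smarcd1 (0.981). None of these 12 genes was called. The 6 most like Adcyap1 or Bdnf had log2 fold changes of 0.18 (Eif4g2, a translation factor) to 1.09 (Wdr19), smaller than those of the genes they resembled. Adcyap1 and Bdnf correlated with each other at r = 0.967, and with Nos1 at -0.925 and -0.926, over the same 6 libraries, which share their depth and their replicate structure.

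Of 5 genes for PACAP, VIP and their receptors, Adcyap1 and Adcyap1r1 were in the table, and Adcyap1 alone was called. Adcyap1r1, the PAC1 receptor, was at 338, 177 and 150 RPM in cold-sensitive and at 171, 151 and 86.1 RPM in cold-insensitive replicates 1 to 3. These libraries overlapped, with a log2 fold change of 0.70 (SE 0.31, edgeR adjusted p = 0.383). Of 19 genes of the cyclic AMP pathway 18 were measured and 0 were called by edgeR (3 higher and 1 lower with p under 0.05 before adjustment, 1 called by DESeq2), and the median of log2 fold changes was -0.14, against 0.00 over all genes. Gnas, the stimulatory G protein subunit, and Prkacb, a catalytic subunit of protein kinase A, were the most abundant, with log2 fold changes of -0.01 and 0.12. Adcy7, an adenylyl cyclase named after its values were seen, was the gene that DESeq2 called, at 40.9 ± 11.5 against 10.0 ± 4.43 RPM (log2 fold change 2.02, DESeq2 adjusted p = 0.00956 and 0.114 from edgeR).

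Of 18 neurotrophin genes and their receptors and processing factors 13 were measured and 0 were called by edgeR or DESeq2 (1 higher and 1 lower with p under 0.05 before adjustment, 1 higher with the replicate block, which is Bdnf), and the median of log2 fold changes was 0.31. The gene lower at the unadjusted p was Ntrk2, the receptor of BDNF, at 272, 373 and 306 RPM in cold-sensitive and 442, 450 and 641 RPM in cold-insensitive replicates 1 to 3. Its libraries did not overlap either, in the opposite direction to those of its ligand (log2 fold change -0.69, SE 0.22, edgeR adjusted p = 0.180). Kidins220, a scaffold of neurotrophin receptors, had a log2 fold change of -0.03.

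Of 18 entries for nitric oxide synthesis, its cofactor and its targets, 11 were measured and 0 were called by edgeR, with 0 higher and 4 lower with p under 0.05 before adjustment and 1, Nos1, called by DESeq2. Of all 9583 genes 1024 had an unadjusted p under 0.05, both directions together. The median of log2 fold changes in the list was -0.07. The 3 others of these 4, named after their values were seen, were Prkg1 and Prkg2, the cyclic GMP-dependent kinases, with log2 fold changes of -1.52 (edgeR adjusted p = 0.177) and -1.62 (adjusted p = 0.326), and Dynll1, a dynein light chain that binds the synthase (-0.87, adjusted p = 0.340). Prkg1 was at 15.5, 25.8 and 30.8 RPM in cold-sensitive and 27.4, 73.8 and 106 RPM in cold-insensitive replicates 1 to 3, with overlap between the types. Gucy1b3, a subunit of soluble guanylyl cyclase also named after its values were seen, was at 80.0 ± 15.8 and 79.2 ± 16.1 RPM. Dlg4, the scaffold PSD-95 that holds the synthase at synapses, had a log2 fold change of 0.34 (edgeR adjusted p = 0.682). The other nitric oxide synthase genes, Nos2 and Nos3, are not in the table.

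Sncb, which encodes beta-synuclein and was named after its values were seen, was at 95.1, 61.7 and 101 RPM in cold-sensitive and 73.2, 65.4 and 48.0 RPM in cold-insensitive replicates 1 to 3. These libraries overlapped (log2 fold change 0.47, edgeR adjusted p = 0.704), and the higher mean, 85.9 ± 21.1 against 62.2 ± 12.9 RPM, was on the side opposite to that of Sncg. Of 5 listed genes of synucleins and partners 5 were measured and 0 were called by edgeR or DESeq2 (0 higher and 1 lower, Sncg, with p under 0.05 before adjustment), and the median of log2 fold changes was -0.11. The synaptic vesicle proteins Vamp2 and Dnajc5, the most abundant of them, had log2 fold changes of 0.22 and -0.11.

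**Figure D4:**
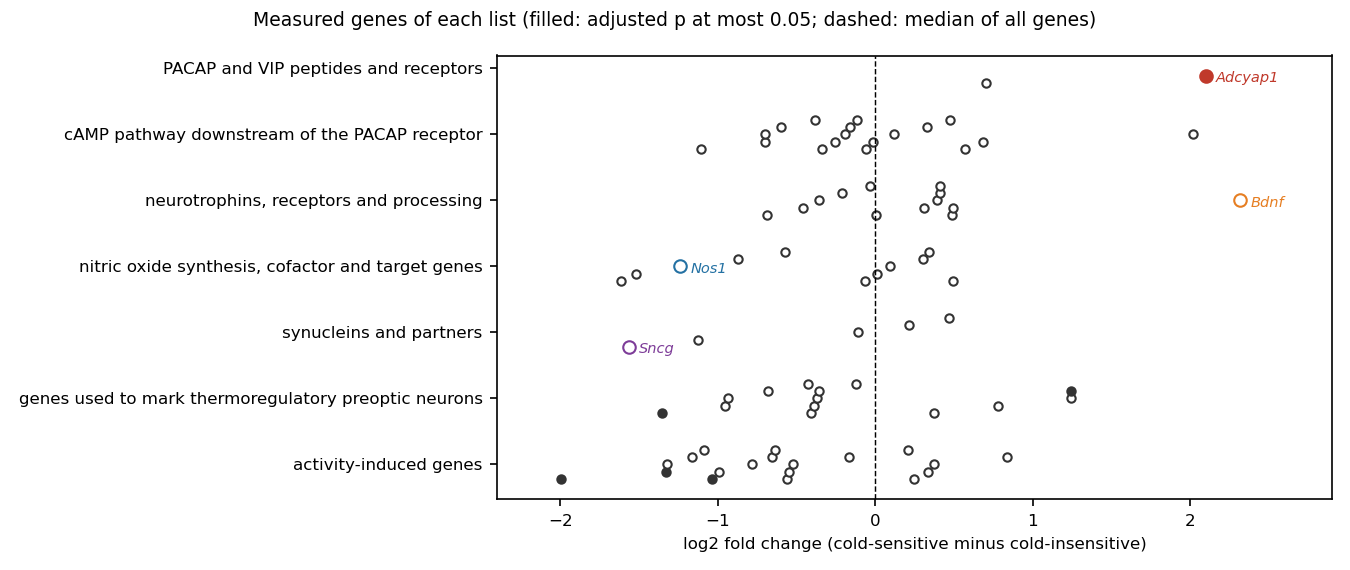
Log2 fold change (cold-sensitive minus cold-insensitive) of each measured gene of 7 lists, with the 4 genes named and filled points where edgeR's adjusted p is at most 0.05. Sst, at -8.15, is left out to keep the scale. Adcyap1 (2.10) and Bdnf (2.31) lie at the high end of their own lists, and the dashed line is the median of all genes (0.00).

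Of 23 other genes used to mark thermoregulatory POA neurons 15 were measured, 1 was called higher, 2 were called lower and 12 did not pass. Of all genes 0.334% were called higher and 0.835% lower. Before adjustment 2 of the list were higher and 3 lower with p under 0.05 in edgeR, as were 1024 of all 9583 genes in either direction. The median of log2 fold changes was -0.39. Slc17a6, the vesicular glutamate transporter, was the gene called higher, at 217, 284 and 289 RPM in cold-sensitive and 70.4, 113 and 150 RPM in cold-insensitive replicates 1 to 3. As for Bdnf, replicate 1 was lowest and replicate 3 highest in each type. The peptide genes Sst and Gal fell, with log2 fold changes of -8.15 and -1.35, and the call of Gal was lost with robust dispersions (edgeR adjusted p = 0.102). Gal had its highest value, 629 RPM, in cold-insensitive replicate 1, the library lowest in Adcyap1 and Bdnf. Gad2 and Gad1, which make the transmitter GABA, were the most abundant of the list, with log2 fold changes of -0.12 and -0.39 (edgeR adjusted p = 0.924 and 0.594). Slc32a1, the vesicular GABA transporter, was at 62.9, 41.8 and 67.7 RPM in cold-sensitive replicates 1 to 3. In cold-insensitive replicates 1 to 3 it was at 123, 119 and 92.2 RPM, so its libraries did not overlap. Slc32a1 did not pass the test (log2 fold change -0.95, edgeR adjusted p = 0.211) and was picked with these values known. Ptger3, the prostaglandin receptor of POA neurons that mediate fever, was at 11.3 ± 6.67 and 14.6 ± 2.88 RPM (log2 fold change -0.37, edgeR adjusted p = 0.926), a gene named after its values were seen. Lepr, Qrfp, Opn5 and Brs3, which mark other neurons of this kind, are not in the table.

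Bdnf is itself induced by activity, so activity-induced genes were set beside it. Of 20 such genes 19 were measured, 0 were called higher, 3 were called lower and 16 did not pass, where 0.334% of all genes were called higher and 0.835% lower. Before adjustment 1 was higher and 7 were lower with p under 0.05 in edgeR, as were 1024 of all 9583 genes in either direction. The median of log2 fold changes was -0.64. With the replicate block 1 was called higher and 4 lower, where 0.417% and 1.19% of all genes were. The genes called lower without the block were Fosb, Nr4a1 and Nptx2, with log2 fold changes of -1.03, -1.997 and -1.33. Vgf, a neuropeptide precursor gene, and Jun, a transcription factor gene, were the most abundant, with log2 fold changes of -0.17 and -0.56 (edgeR adjusted p = 0.870 and 0.286). Egr1, named after its values were seen, was at 749 ± 183 against 418 ± 86.1 RPM (log2 fold change 0.84, edgeR adjusted p = 0.0700 and 0.0174 with the replicate block), the gene called higher in the blocked fit.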

How the data were processed

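RNA of 6 pools was sequenced, 3 of cold-sensitive and 3 of cold-insensitive POA neurons, grouped by their labels. Per the methods and the submitters' notes, reads were trimmed with Trimmomatic 0.36, aligned with STAR 2.5.4b to GRCm38.p6 and assigned to protein-coding genes by featureCounts (Subread 1.6.2). The deposited raw counts and the deposited normalized signal (RPM, counts divided by the TMM effective library size) were used. The authors' fold changes, p-values and group means, also in the table, were not used. The authors had removed genes without reads or below 1 RPM in a library, and the lowest deposited value is 1.01 RPM.

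The counts were tested in R 4.3.3 with edgeR 4.0.16 (TMM, legacy glmQLFit and glmQLFTest, neuron type as the only term) over 9583 genes, with calls at adjusted p values up to 0.05, and checked on simulated data. Alternatives used DESeq2 1.42.0, limma 3.58.1, other scalings, a filter at 5 RPM, the replicate as a block and left-out libraries. The methods describe both types of a replicate as collected from the same isolations. That equal numbers mark such pairs is inferred, since the labels do not state it. Deviations from the type means correlated at only 0.0446 to 0.0587 between libraries of equal number and at -0.041 to -0.0071 between those of unequal number. These ranges are not independent, since deviations from a mean offset each other. Pools are the replicates. The edgeR p-values rest on a spread between pools that is moderated across all genes, so they do not measure that of 1 gene alone. With robust dispersions the SE of the log2 fold change rose from 0.40 to 0.72 for Adcyap1 and from 0.63 to 1.40 for Bdnf. RNA integrity differed widely among the samples by the range that the paper gives, without a value per pool. Its part in the values of single libraries was not tested.

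The 4 genes and all gene lists were chosen with earlier results of these data known. Named besides them are the 2 most abundant and up to 4 called genes of each list other than cell type markers and, for each of the 4, the 3 genes most alike in profile; others are marked where named. Some listed genes are not reported here. Annotation came from GENCODE release M21, in which all 4 matched by symbol, and promoters from RefSeq.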

Additional observations from a re-analysis of the deposited data

How the results depend on the processing

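All 4 genes kept their direction in 20 alternatives. As libraries of the 2 types did not overlap for any of them, leaving libraries out could hardly reverse it. For Adcyap1 the call was lost with DESeq2 (log2 fold change 2.11), with robust dispersions (2.10) and without both libraries of replicate 2 (2.35). With libraries left out its log2 fold change was 1.61 to 2.502. Bdnf was called with limma at pseudocounts of 1 (3.43) and 0.5 (3.52), the likelihood ratio test (2.31) and the replicate block (3.20). With libraries left out the log2 fold change of Bdnf was 1.74 to 3.49, called in some of these fits and not in others. Nos1 was called with DESeq2 (-1.23) and the likelihood ratio test (-1.24). With libraries left out the log2 fold change of Nos1 was -1.55 to -0.91, called only without cold-insensitive replicate 3. Of the 4 genes, 1 was called by edgeR, 2 with limma at either pseudocount or with the replicate block, 3 with the likelihood ratio test, 0 with robust dispersions and 0 to 3 with libraries left out. The genes called in all were 112, and 231 with DESeq2, 179 with the likelihood ratio test and 8 to 120 with libraries left out, the lowest without both libraries of replicate 2. The causes were not tested. Scaling by the deposited effective library sizes, chosen after seeing the data, changed no call of the 4 genes. With the longest transcript as length, the order per kilobase in cold-insensitive neurons had Bdnf (16.6 RPM per kilobase) above Nos1 (12.9). The replicate block changed no call of Adcyap1, Nos1 or Sncg. Sncg had 20 to 289 reads per library and Bdnf 12 in its lowest, so counting error is widest there.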
